A study of Drosophila melanogaster with 6 samples.

Results

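Nuclear pore and nuclear transport genes were followed in germline stem cells (GSC) and in Kc cells of Drosophila melanogaster. The members were the genes whose array symbol began with Nup and a digit, together with a short list of transport factors, and 32 of the 10844 genes with a probe set of their own were found by this rule. Of these, 21 encode components of the pore, 3 are importin alpha genes, 2 encode carriers of the importin beta class, 2 act in export and 4 in the Ran cycle. No probe set assigned to a single gene carried the symbols sbr, Nup58 or Mtor, so sbr and Nup58 were not analysed here, and the last gene is described under its current symbol Mgtor beside the members. All 32 members had a mean level above the median of all genes.

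Per the labels, GSC were highly purified from ovaries mutant for bam, a gene that drives the differentiation of stem cell daughters, so that undifferentiated germ cells accumulate in its absence. The allele and the age of the flies are not given in the labels. Kc cells, a line derived from embryos and grown in tissue culture, served as the comparison, and each group had 3 arrays of total RNA. Kc is a single line and the only baseline, so higher and lower mean relative to Kc.

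The nuclear pore is built from many copies of the nucleoporins, which form stacked rings in the nuclear envelope, a central channel lined by phenylalanine-glycine repeats, filaments on the cytoplasmic side and a basket on the nuclear side. Soluble carriers of the karyopherin family take cargo through the channel: importin alpha reads the classical nuclear localisation signal and rides on importin beta, whereas exportins carry proteins out. The direction is set by the small GTPase Ran, which is loaded with GTP in the nucleus by Rcc1, discharged in the cytoplasm by RanGAP and returned to the nucleus by Ntf-2. In Drosophila, importin alpha genes are known for their roles in the formation of eggs and sperm.

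The array medians of the deposited signal lay between 164.7 and 176.5 in GSC and between 148.5 and 161.0 in Kc. Of 6 germ cell markers, 5 were higher in GSC and bam was lower, with summed signals of 28602 to 30921 in GSC and 894 to 1226 in Kc. The 6 measured hemocyte markers summed to 160 to 290 in GSC and 21640 to 22627 in Kc. Of these 6, 4 were called lower in GSC. Sr-CI (mean 8.63 in GSC and 37.5 in Kc) and NimC1 (10.1 and 26.2) were dim in both groups and not called. Yolk and eggshell genes were all higher in GSC (5 of 5 measured), with sums of 2932 to 3369 in GSC and 438 to 730 in Kc, and 6 markers of ovarian somatic cells summed to 398 to 628 in GSC and 3043 to 3407 in Kc, a sum carried in Kc by zfh1 (mean 268 in GSC and 3082 in Kc, called lower). Of the other 5, peb was called higher in GSC (87.9 to 164.6 in GSC and 10.5 to 20.4 in Kc, log2 fold 1.70, limma adjusted p = 0.00156), and tj (log2 fold -0.26), hh (0.19), en (0.36) and ptc (-0.15) were not called. The defining marker tj had 18.9 to 27.2 in GSC and 30.2 to 41.4 in Kc, close to the low end of the signals. The 2 measured muscle genes, of 5 listed, summed to 212 to 323 in GSC and 377 to 567 in Kc. For control transcripts with probe sets at both ends, the 3'/5' signal ratio was higher on every GSC array than on every Kc array, at 4.22 to 4.77 against 1.76 to 1.9 for actin, 4.63 to 6.09 against 3.46 to 3.92 for GAPDH and 5.21 to 7.03 against 3.43 to 3.95 for eIF-4a. The part of these differences in the results on pore and transport genes was not tested. In RNA from many cells, fewer cells of a type and less RNA per cell cannot be told apart.

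As a group, the genes were more often higher than lower in GSC, with 8 called higher and none called lower. A gene was called when its adjusted p was under 0.05 (limma, with Benjamini-Hochberg adjustment over all probe sets) and its fold was at least 2, and by this rule 12.5% of all genes were higher and 8.02% lower. Among genes above the median level, a restriction chosen after the data were seen, the shares were 17.3% higher and 11.7% lower, against 8 and 0 of the 32 members. The genes called higher were the carriers Fs(2)Ket, Tnpo and emb and the nucleoporins Nup188, Nup205, Nup160, mbo and Nup214. The median log2 fold of the 32 members was 0.48, beside 0.04 for all genes, and the members ranged from -0.94 (Nup43) to 1.89 (Tnpo).

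The count of 0 lower rests on the fold minimum. Without it, limma called 17 members higher and 3 lower, Nup43, Ran and Pen, where 21.9% of all genes were higher and 14.4% lower. At an unadjusted p under 0.05 there were 18 higher and 5 lower, where 25.8% of all genes were higher and 17.9% lower. Every GSC signal exceeded every Kc signal for 18 members and fell short of it for 3, and the groups overlapped for the other 11 (27.5% of all genes lay above and 19.5% below). Of the 24 uncalled members, 18 had a 95% interval of the log2 fold that lay within -1 and 1, so that a change of at least 2-fold was outside the interval.

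**Figure D1:**
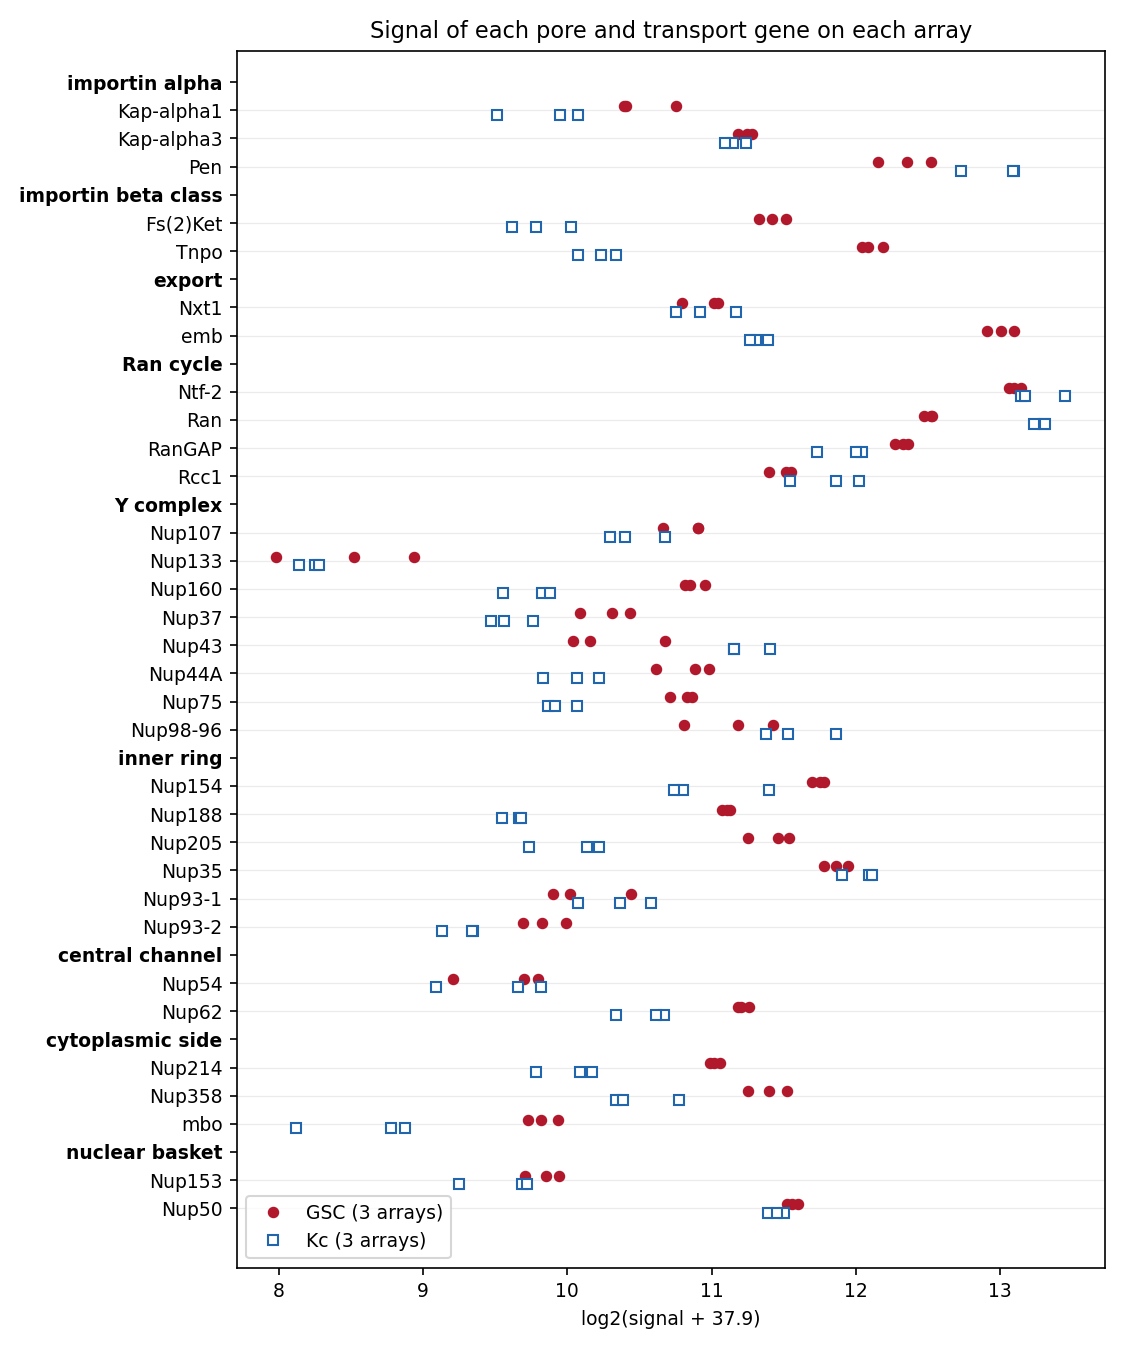
Each row is 1 gene and each symbol 1 array, with log2(signal + 37.9) on the horizontal axis; filled circles are the 3 GSC arrays and open squares the 3 Kc arrays. Circles and squares are apart for 21 of the 32 genes, with the circles to the right for 18 of them.

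**Figure D2:**
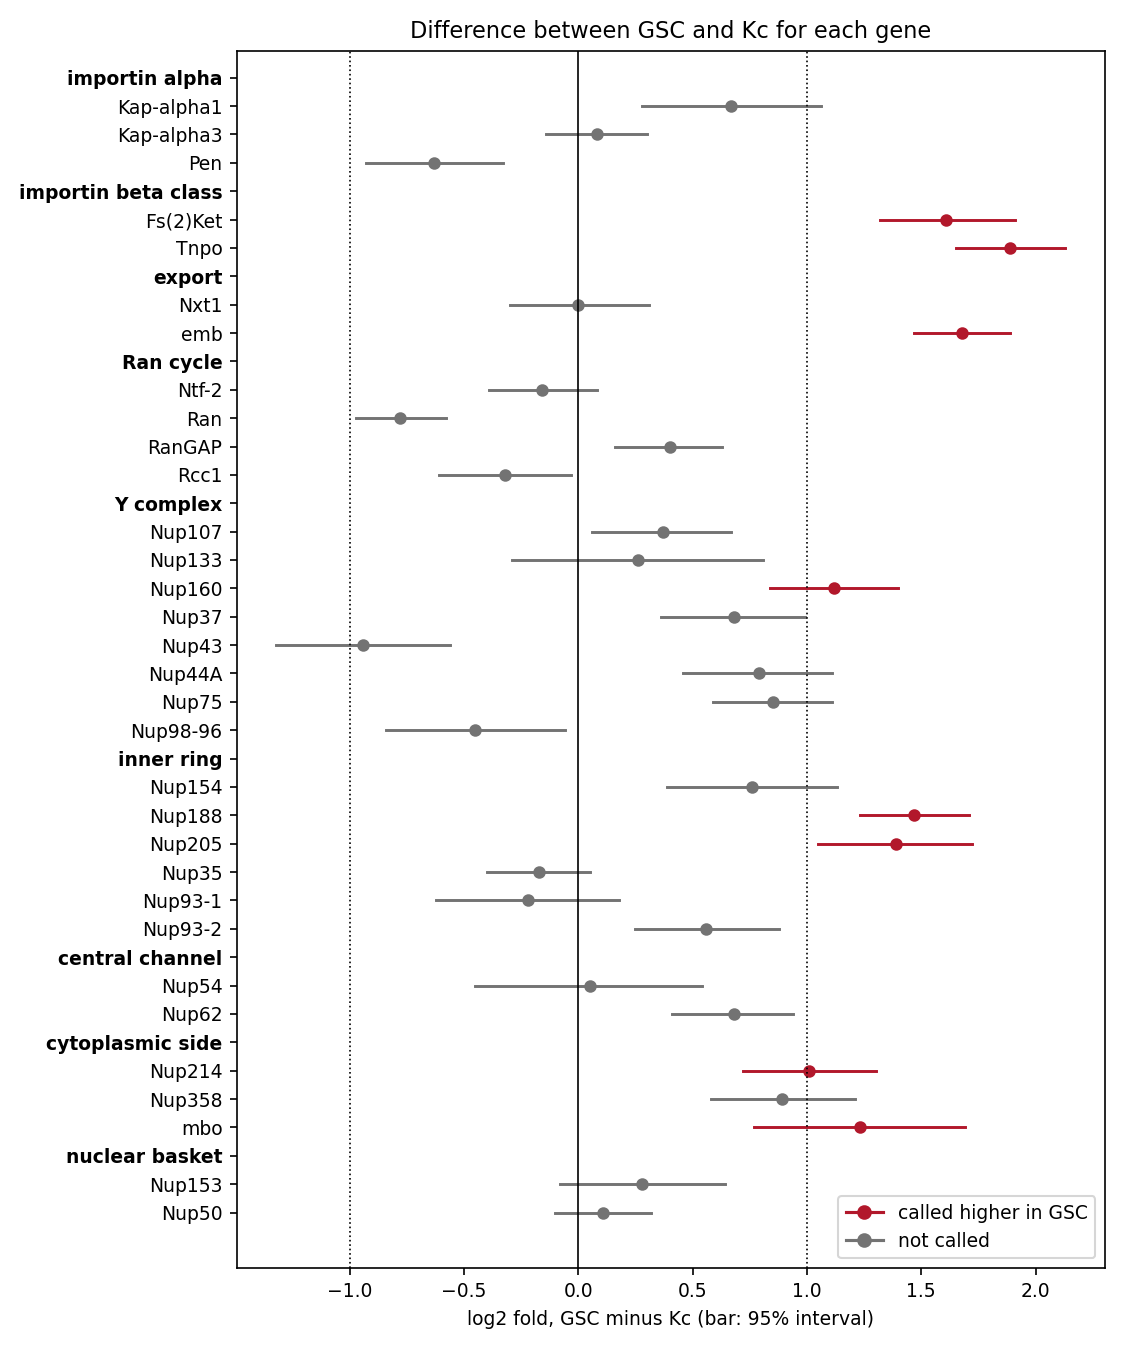
Points give the log2 fold of GSC minus Kc and bars its 95% interval, with dotted lines at -1 and 1. The 8 genes called higher are in red and stand in the importin beta class, the exportin emb and 3 of the 5 pore subgroups, and no gene was called lower.

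None of the 3 importin alpha genes was called by limma, where 12.5% of all genes were higher and 8.02% lower. At an unadjusted p under 0.05 Kap-alpha1 was higher and Pen lower (25.8% and 17.9% of all genes). Kap-alpha1 gave signals of 1690.7, 1304.8 and 1321.4 in GSC, against 692.9, 952.9 and 1041.4 in Kc, with a log2 fold of 0.67 ± 0.172 (SE over 3 and 3 arrays, limma adjusted p = 0.0128). The groups did not overlap, but the fold was below the minimum. Pen, also known as importin alpha 2 and needed for female fertility, had 5191.9, 5831.2 and 4518.6 in GSC and 6761.4, 8732.1 and 8677.9 in Kc (log2 fold -0.63 ± 0.134, adjusted p = 0.00455). Every GSC array was below every Kc array for this gene. Kap-alpha3 had 2391.2, 2283.2 and 2452.0 in GSC and 2228.7, 2145.0 and 2380.9 in Kc, with overlapping groups and a log2 fold of 0.08 (95% interval -0.14 to 0.30). Over 17 alternative settings the log2 fold of Kap-alpha1 stayed between 0.50 and 1.11 (adjusted p up to 0.0707). That of Pen stayed between -0.75 and -0.18 (adjusted p up to 0.68). Kap-alpha1 was called higher in 1 of these settings, scaling to the hybridisation controls of the array (1.11, limma adjusted p = 0.00489). Under that scaling 21.7% of all genes were called higher.

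Within each array, the difference in log2 signal between Kap-alpha1 and Pen averaged -1.82 ± 0.27 in GSC and -3.13 ± 0.10 in Kc (SD over 3 arrays), a shift of 1.30 in favour of Kap-alpha1 in GSC. The difference between Kap-alpha3 and Pen averaged -1.11 ± 0.23 in GSC and -1.81 ± 0.21 in Kc, a shift of 0.71. That between Kap-alpha3 and Kap-alpha1 averaged 0.72 ± 0.20 in GSC and 1.31 ± 0.28 in Kc, a shift of -0.59. Arrays of the 2 groups did not overlap for any of the 3 pairs, each with p = 0.1 (exact two-sided permutation test, also 0.1 after adjustment over the 3 pairs), the smallest that 3 against 3 arrays can give. Signals of different probe sets are not on a common scale, so these values describe unequal change between the groups and not which gene is more abundant.

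**Figure D3:**
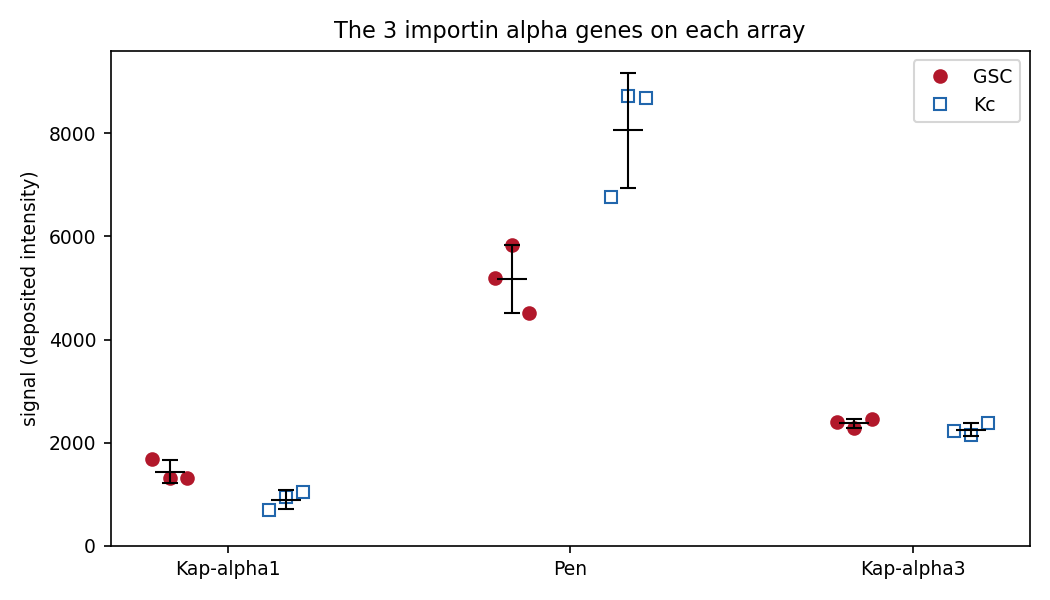
Deposited signal of the 3 importin alpha genes on each array, with filled circles for GSC, open squares for Kc, and bars for the mean and SD of 3 arrays. Kap-alpha1 is higher in GSC on every array, Pen is lower in GSC on every array, and the groups overlap for Kap-alpha3.

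The 2 carriers of the importin beta class that the rule named were both called higher in GSC, where 12.5% of all genes were. Among 11 other karyopherins, described below, Tnpo-SR was called higher, Cse1 was called lower and 9 were not called. Fs(2)Ket, the importin beta that carries importin alpha and its cargo, had 2894.2, 2693.9 and 2532.0 in GSC and 747.1, 1005.1 and 844.6 in Kc, a log2 fold of 1.61 ± 0.131 (adjusted p = 1.08e-05). Tnpo encodes transportin, which imports RNA-binding proteins. It had 4622.6, 4310.9 and 4184.0 in GSC and 1041.1, 1254.3 and 1166.6 in Kc, a log2 fold of 1.89 ± 0.109 (adjusted p = 1.01e-06). The groups were apart for both genes, with means 3.13 and 3.79 times the Kc mean.

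The measured export genes were emb and Nxt1. emb encodes the exportin known as Crm1, which carries proteins with a leucine-rich export signal, and it had 8196.8, 7638.4 and 8723.0 in GSC and 2499.4, 2430.0 and 2641.9 in Kc (log2 fold 1.68 ± 0.0945, adjusted p = 9.13e-07). No GSC array came near the Kc range. Nxt1, the small partner of the messenger RNA exporter sbr, had 1742.7, 2034.3 and 2075.8 in GSC and 2270.0, 1686.9 and 1902.9 in Kc, and its log2 fold was 0.00 (95% interval -0.30 to 0.31). The 95% interval of emb, 1.47 to 1.89, did not reach that of Nxt1, but that of a second, dimmer emb probe set (-0.09 to 1.01) did. The difference between the 2 genes was not tested. With 1 gene called of 2, the median of 0.84 describes neither.

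The probe set that represents a gene here is the one with the highest mean, and all 3 called carriers have a dimmer probe set that was not called. The second probe set of emb had 933.0, 871.3 and 731.7 in GSC and 398.9, 610.5 and 880.3 in Kc, with overlapping groups and a log2 fold of 0.46 (adjusted p = 0.191). That of Fs(2)Ket had 1322.3, 1549.6 and 1586.1 in GSC and 700.0, 1187.8 and 1042.9 in Kc (0.61, adjusted p = 0.0279). That of Tnpo had 433.8, 479.1 and 387.6 in GSC and 659.5, 659.9 and 658.8 in Kc, a log2 fold of -0.57 (adjusted p = 0.0101), opposite in sign to the brighter one. With the mean over its probe sets, Tnpo was not called (0.66), whereas Fs(2)Ket (1.11) and emb (1.07) were. Where in the transcripts these probe sets lie is not given in the sources used here.

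None of the 4 Ran cycle genes was called in either direction, where 12.5% of all genes were higher and 8.02% lower. At an unadjusted p under 0.05 RanGAP was higher and Ran and Rcc1 lower (25.8% and 17.9% of all genes). Ran itself had 5633.9, 5837.6 and 5870.2 in GSC and 10070.7, 10124.0 and 9589.5 in Kc, with a log2 fold of -0.78 ± 0.0857 (adjusted p = 6.99e-05). The groups were far apart relative to their spread, and the 95% interval of -0.97 to -0.58 stayed within 2-fold. With scaling to the hybridisation controls of the array, the value was -0.33 (adjusted p = 0.376). RanGAP, which stimulates GTP hydrolysis by Ran, had 5212.8, 5090.3 and 4910.5 in GSC and 3365.8, 4172.0 and 4051.1 in Kc (0.40, adjusted p = 0.016). It was the only Ran cycle gene with every GSC array above every Kc array.

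Rcc1, the nucleotide exchange factor of Ran, had 2966.4, 2666.3 and 2886.1 in GSC and 2948.3, 4117.6 and 3678.3 in Kc, with overlapping groups (log2 fold -0.32, adjusted p = 0.0906). Its second probe set had a log2 fold of 0.27 (adjusted p = 0.357). Ntf-2, the importer of Ran, had 8493.5, 8727.8 and 9013.3 in GSC and 11156.4, 9011.6 and 9198.8 in Kc (-0.16, adjusted p = 0.314). Its groups overlapped through GSC 3 and Kc 2.

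**Figure D4:**
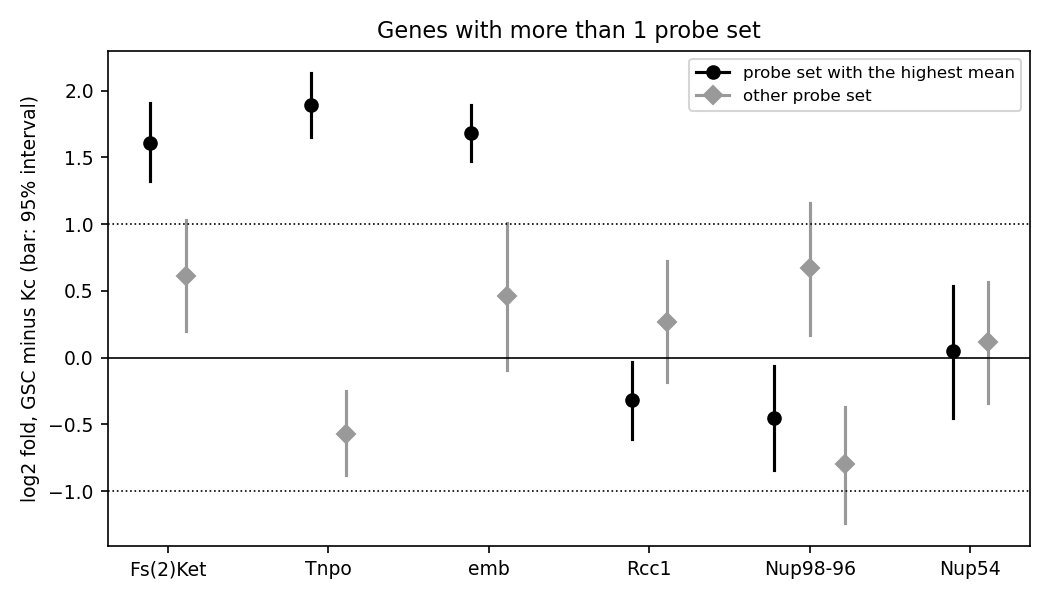
Log2 fold of GSC minus Kc with its 95% interval for each probe set of the 6 genes that have more than 1; black circles are the probe sets with the highest mean and grey diamonds the others. The probe sets of Tnpo, Rcc1 and Nup98-96 lie on both sides of 0.

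Among the 21 pore genes, 5 rose in GSC, none fell and 16 passed neither way (12.5% of all genes higher and 8.02% lower, and 17.3% and 11.7% of those above the median level). At an unadjusted p under 0.05, limma had 13 higher and 2 lower, Nup43 and Nup98-96 (25.8% and 17.9% of all genes). The median log2 fold of the pore genes was 0.68, beside 0.08 for importin alpha, 0.84 for the 2 export genes, 1.75 for the 2 importin beta carriers, -0.24 for the Ran cycle and 0.04 for all genes. A positive log2 fold was found for 17 of the 21 pore genes, and for 5768 of all 10844 genes. Among the 21, every GSC array was above every Kc array for 13 genes and below for 1, Nup43 (27.5% and 19.5% of all genes).

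The inner ring is the scaffold that joins the pore to the membrane. Of its 6 genes, 2 large scaffold nucleoporins were called higher, where 12.5% of all genes were (17.3% of those above the median level). Nup188 had 2195.3, 2119.3 and 2165.3 in GSC and 709.3, 775.9 and 783.4 in Kc, a log2 fold of 1.47 ± 0.108 (adjusted p = 4.93e-06), the highest of the pore genes. Nup205 had 2396.7, 2927.2 and 2780.6 in GSC and 815.1, 1085.6 and 1152.4 in Kc (1.39 ± 0.148, adjusted p = 6.32e-05). Both genes had separate groups and GSC means of 2.86 and 2.65 times the Kc mean.

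The other 4 inner ring genes were not called. Nup154, which is needed for fertility in flies, had a log2 fold of 0.76 (adjusted p = 0.00499), with GSC signals of 3477.2, 3284.4 and 3412.5 and Kc signals of 1748.5, 2659.4 and 1669.2. Its Kc 2 array stood above the other two. The paralogs Nup93-1 and Nup93-2 had log2 folds of -0.22 (95% interval -0.62 to 0.18) and 0.56 (0.25 to 0.88), and the difference between them was not tested. Nup35 had -0.17 (-0.40 to 0.05).

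On the cytoplasmic side all 3 genes had higher signals on every GSC array, and 2 were called. Of all genes, 27.5% had every GSC array above every Kc array and 12.5% were called higher (17.3% of those above the median level). mbo encodes Nup88, which in flies holds emb at the pore and restrains export. It had 941.3, 863.3 and 810.8 in GSC and 240.6, 400.5 and 432.9 in Kc, a log2 fold of 1.23 ± 0.205 (adjusted p = 0.00104). Its partner Nup214 had 2095.5, 2038.4 and 1989.9 in GSC and 1051.7, 841.6 and 1112.5 in Kc (1.01 ± 0.128, adjusted p = 0.000183). Nup358, the fibre protein that binds Ran, had 2900.7, 2405.5 and 2660.8 in GSC and 1254.0, 1710.4 and 1301.0 in Kc, a log2 fold of 0.89 ± 0.14 (adjusted p = 0.000733), and among the 21 counted pore genes was the uncalled one nearest to the fold minimum from below.

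The calls on the cytoplasmic side lie close to the fold minimum and changed with single arrays. Nup214 was not called without GSC 1 (log2 fold 0.99) or without Kc 2 (0.89), nor with the pseudocount at the median (0.93), quantile normalization (0.97) or scaling to the median (0.89). mbo was not called without Kc 1 (1.00, just under the minimum before rounding), and Nup358 was called without Kc 2 (1.03). Their adjusted p stayed under 0.05 in these fits, so that the calls turned on the fold alone.

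The Y complex, named for its shape, forms the outer rings of the pore. Of its 8 measured genes 1 rose, or 12.5%, the same share as the 12.5% of all genes called higher. Nup160 had 1943.5, 1764.8 and 1806.0 in GSC and 869.9, 902.7 and 715.3 in Kc, a log2 fold of 1.12 ± 0.126 (adjusted p = 7.95e-05), and only scaling to the median, of the 17 alternatives, took it just under the fold minimum (1.00 after rounding). Nup75 (0.85), Nup44A (0.79), the fly counterpart of Seh1, and Nup37 (0.68) had adjusted p-values between 0.000263 and 0.00386 and separate groups, but folds below the minimum. Nup107 had 0.37 (95% interval 0.06 to 0.67) and Nup133 0.26 (-0.29 to 0.81), with overlapping groups. Nup37 and Nup358 are neighbours in the fly genome, with 0 protein-coding genes between them in the RefSeq order.

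Nup43, also of the Y complex, had the lowest log2 fold of all members. It had 1015.2, 1599.8 and 1106.0 in GSC and 2669.8, 2237.9 and 2238.9 in Kc, a log2 fold of -0.94 ± 0.17 (adjusted p = 0.00171), and every GSC array was below every Kc array. Among the 21 counted pore genes it was the uncalled one nearest to the fold minimum on the lower side. It was called without GSC 2, its highest GSC array (-1.14), and with scaling to the median (-1.06). With scaling to the hybridisation controls its log2 fold was -0.50 (limma adjusted p = 0.192).

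Nup98-96 encodes a precursor that yields both Nup98 and Nup96, and its 3 probe sets disagreed. The one with the highest mean had 1758.1, 2281.6 and 2717.3 in GSC and 3678.9, 2620.8 and 2921.0 in Kc, with overlapping groups (log2 fold -0.45, adjusted p = 0.0772). Another had 597.2, 586.6 and 723.1 in GSC and 261.7, 441.6 and 488.0 in Kc (0.67, adjusted p = 0.041). The third had 476.5, 447.0 and 409.3 in GSC and 628.9, 759.6 and 1079.3 in Kc (-0.80, adjusted p = 0.00907). None reached the fold minimum, and no single direction describes the gene.

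In the central channel, Nup62 had 2324.3, 2410.8 and 2281.2 in GSC and 1255.2, 1588.1 and 1529.3 in Kc, a log2 fold of 0.68 (adjusted p = 0.00139). Nup54 had 0.05 (95% interval -0.45 to 0.54), and its second probe set 0.12. Of the nuclear basket genes, which organise the inner face of the pore, Nup153 had 0.28 (-0.08 to 0.64) and Nup50 0.11 (-0.10 to 0.32). Neither subgroup held a called gene, with 1 of these 4 genes, Nup62, at an unadjusted p under 0.05. The third basket gene, Mgtor, the fly counterpart of Tpr, had 1975.1, 2093.1 and 2171.1 in GSC and 1147.4, 938.7 and 1014.3 in Kc, and missed the fold minimum with a log2 fold of 0.99 ± 0.116 (adjusted p = 0.000108).

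Other genes of the pathway were taken from lists of pore, carrier and export genes, of which Gp210, cdm, Apl, nxf3, xmas, PCID2 and Dbp80 were not analysed here. Of 6 further pore components, 0 were called in either direction by limma (12.5% of all genes higher and 8.02% lower), while 3 were higher and 1 lower at an unadjusted p under 0.05 (25.8% and 17.9%). Rae1, a messenger RNA export factor at the pore, had a log2 fold of 0.51 and Ndc1, a membrane anchor of the pore, -0.74. The list had a median of 0.09. Of 11 other karyopherins, 1 was higher, 1 lower and 9 passed neither way, shares near those of all genes, with a median of 0.18.

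Cse1, the exportin that returns importin alpha to the cytoplasm, had 1227.0, 1294.4 and 1117.4 in GSC and 2884.5, 2938.4 and 2745.9 in Kc, a log2 fold of -1.21 ± 0.105 (adjusted p = 1.48e-05). Every GSC array was below every Kc array. Tnpo-SR, which imports splicing factors, had 644.5, 645.4 and 538.2 in GSC and 149.4, 231.8 and 193.3 in Kc (1.51 ± 0.19, adjusted p = 0.000175). The importins msk (-0.56) and Karybeta3 (-0.46) had every GSC array below every Kc array, with folds under the minimum. Ranbp16, by the brighter of its 2 probe sets, went the other way. Its log2 fold was 0.91 (limma adjusted p = 0.00184), also under the minimum, with every GSC array above every Kc array. Of all genes, 27.5% lay above and 19.5% below. At an unadjusted p under 0.05, 2 of the 11 karyopherins were higher and 3 lower (25.8% and 17.9% of all genes).

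Of 12 further genes listed under messenger RNA export, 3 rose, 0 fell and 9 passed neither way, with a median log2 fold of 0.63. Of all genes, 12.5% were higher and 8.02% lower. At an unadjusted p under 0.05, 9 of the listed genes were higher and 0 lower (25.8% and 17.9%). The list also held RanBP3 (0.88, among these 9) and nxf2 (0.21), for which no role in messenger RNA export is claimed here. The 3 that rose encode subunits of the THO complex, which couples transcription to export. thoc7 had 1779.4, 1448.8 and 1367.2 in GSC and 346.8, 574.3 and 470.8 in Kc (log2 fold 1.66, adjusted p = 8.3e-05). tho2 had 595.9, 716.4 and 799.8 in GSC and 218.0, 192.8 and 188.6 in Kc (1.63, adjusted p = 4.66e-05), and Hpr1 rose by 1.21 (adjusted p = 0.000321). The GSC and Kc arrays were apart for all 3, while the THO genes thoc5 (0.70), thoc6 (0.05) and tex (0.32) were not called.

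**Figure D5:**
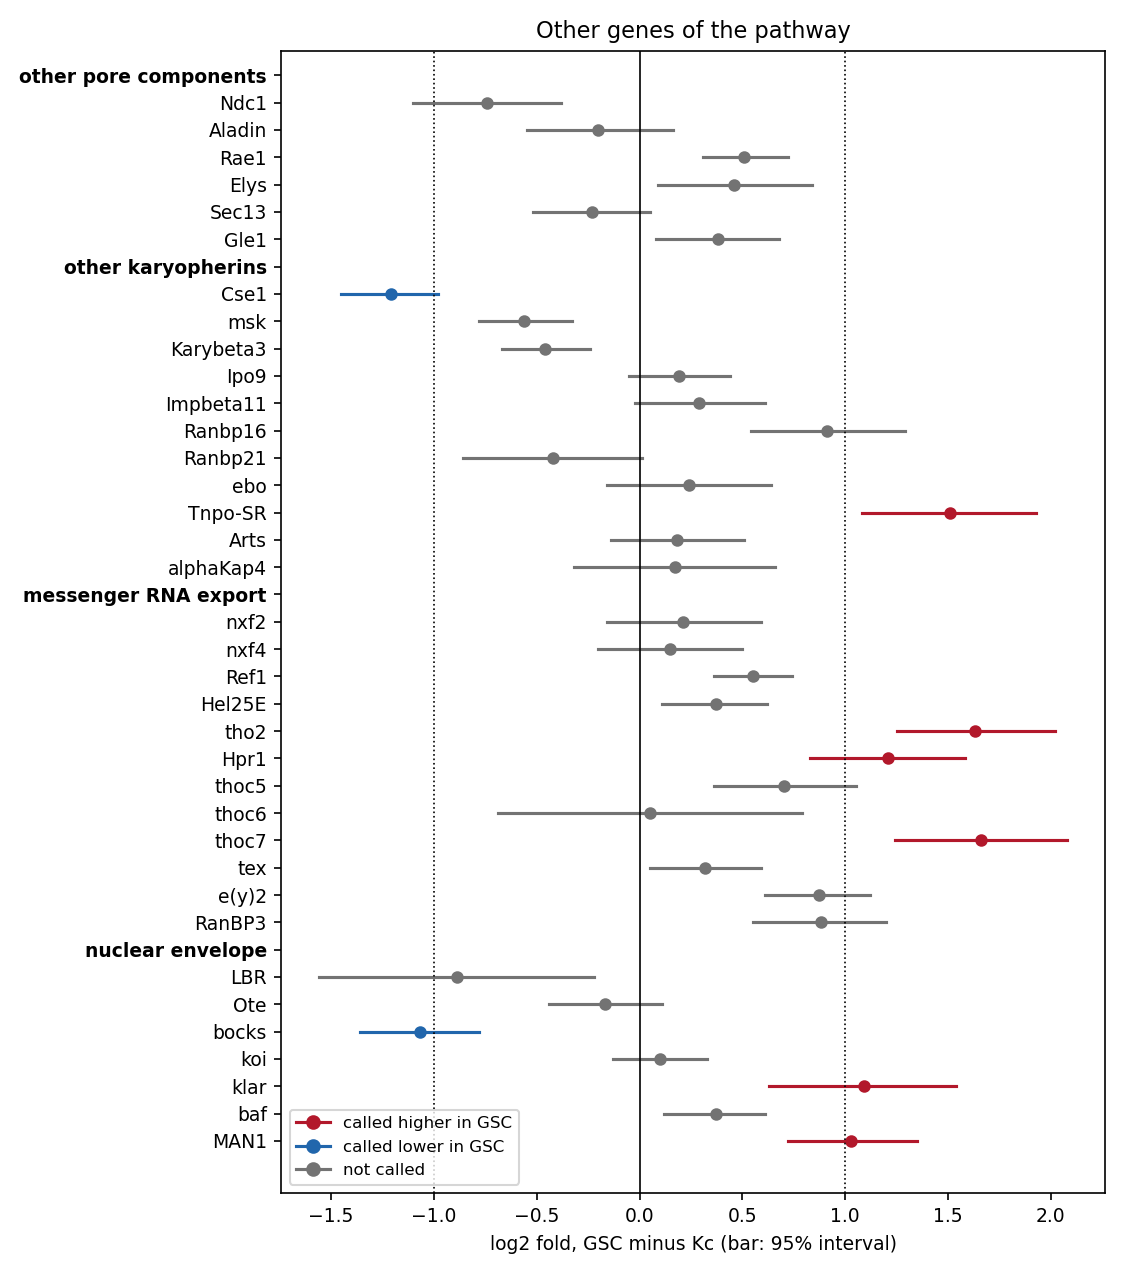
Log2 fold of GSC minus Kc with its 95% interval for the other genes of the pathway, in 4 lists; red marks genes called higher in GSC, blue genes called lower and grey those not called. Of the 11 karyopherins, Tnpo-SR and Cse1 lie beyond the dotted lines on opposite sides, and the 3 called genes of messenger RNA export are all to the right.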

How the data were processed

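The authors deposited 1 linear intensity per probe set and array, with MAS5 named in the submitters' processing notes (no version or settings are given in the sources used here). A 2%-trimmed mean was 500 on all 6 arrays, so no further scaling was applied. Every column belonged to a sample (0 without). Precision is limited by the number of arrays, and the labels do not say whether arrays of a group came from independent material, so the p-values cover the spread between these arrays alone, possibly a technical one.

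Of 14010 probe sets, 44 controls were left out. The platform annotation gave 1 symbol for 12443 of the 13966 tested, several for 327 and none for 1196, and all 32 member symbols were current in the RefSeq table of Release 6 plus ISO1 MT. For genes with several probe sets, the one of highest mean log2 level was used. The pseudocount added before taking log2 was 37.9, the 25th percentile of all values, which understates the folds of dim genes. GSC and Kc were compared with limma 3.58.1 in R 4.3.3 (lmFit and eBayes with trend and robust estimation, two-sided), and summaries were made with pandas 2.3.3 and NumPy 2.4.6. The fit was checked on simulated arrays.

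Values on every array are given for all transport genes, each called pore gene, mbo and the uncalled pore genes nearest the fold minimum. Other genes shown array by array (Nup154, Nup62, Nup98-96, Mgtor and second probe sets) were chosen after their values were seen, as were the uncalled genes named in the further lists. Those lists name up to 4 called genes. The members, lists and tests were chosen with earlier results of these data known. Same-numbered arrays of the groups did not deviate together (correlations of -0.03, 0.036 and -0.007). Alternatives covered the pseudocount, scaling, leaving out dim probe sets, the prior on the variance, a replicate block, each array left out, the fold minimum and the choice of probe set. Sequences of promoters and proteins were not used here.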

Additional observations from a re-analysis of the deposited data

How the results depend on the processing

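The 8 members called higher were all kept with a pseudocount of 1, a floor, the dim filter, the plain variance prior, treat, and the probe set of highest mean signal. With the replicate block the counts were also 8 higher and 0 lower (12.4% and 7.97% of all genes). The block changed the call of no member. Leaving out single arrays gave 7 to 8 higher and 0 to 1 lower (12.1% to 12.6% and 7.72% to 8.06% of all genes). It gave a pore median of 0.60 to 0.68, and log2 folds of -0.17 to 0.23 for Nup54 and -0.09 to 0.12 for Nxt1, which crossed 0. Scaling to the 9 hybridisation controls (geometric means 2113 to 3753 in GSC and 3636 to 4302 in Kc) moved the median of all probe sets to 0.32, against 0.025 as deposited. Under it 15 members were higher and 0 lower, where 21.7% of all genes were higher and 4.87% lower. Of all calls, 80.4% were higher. The medians were 1.11 for pore, 0.52 for importin alpha and 1.29 for export genes. Ntf-2 (0.29), Nup35 (0.27), Nup93-1 (0.22) and Rcc1 (0.13) turned positive. Relative to all probe sets, the pore median was then 0.79, against 0.65 as deposited. Scaling to the median gave 6 higher and 1 lower (Nup43), where 10.7% of all genes were higher and 9.29% lower. It gave medians of 0.55 for pore, -0.05 for importin alpha and 0.72 for export genes. Kap-alpha3 (-0.05), Nup50 (-0.01), Nup54 (-0.07) and Nxt1 (-0.12) had negative values. Quantile normalization gave medians of 0.58 for pore and 0.96 for export genes, shifts of 0.93 (Kap-alpha1 minus Pen) and 0.45 (Kap-alpha3 minus Pen), and turned Ntf-2 (0.23), Nup35 (0.05) and Nup54 (-0.11). These 2 scalings had 51.6% and 53.6% of all calls higher. With the pseudocount at the median, the pore median was 0.60 and 1691 probe sets were called, against 2765. With the mean over probe sets the export median was 0.54. A fold minimum of 1.5 called 15 members higher and 3 lower, where 19.6% of all genes were higher and 12.4% lower (4267 probe sets). No minimum called 17 and 3, where the shares were 21.9% and 14.4% (4813 probe sets). The causes were not tested. No background level is stated for the array, which limits statements on dim genes.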

Other observations

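Genes of the nuclear envelope, in which the pores sit, were split. Of 9 listed, the lamin genes Lam and LamC were not analysed here. Of the 7 measured, 2 rose in GSC, 1 fell and 4 passed neither way, with a median log2 fold of 0.10. Of all genes, 12.5% were higher and 8.02% lower. MAN1, a LEM domain protein of the inner membrane, had 1290.2, 1443.8 and 1433.6 in GSC and 765.3, 559.2 and 668.1 in Kc (log2 fold 1.03, limma adjusted p = 0.000303). The nuclear positioning gene klar, by the brighter of its 2 probe sets, had 653.6, 952.6 and 772.7 in GSC and 305.5, 300.3 and 460.9 in Kc (1.09, adjusted p = 0.0021). bocks, which encodes another LEM domain protein, had 668.3, 540.6 and 598.6 in GSC and 1224.4, 1352.2 and 1329.5 in Kc (-1.07, adjusted p = 0.000121). The groups were apart for all 3. Ote, a LEM domain gene needed to maintain germline stem cells, was not called, with a log2 fold of -0.17 (95% interval -0.44 to 0.11). LBR was not called either, with a log2 fold of -0.89 (limma adjusted p = 0.0433) and every GSC array below every Kc array. At an unadjusted p under 0.05, 3 of the 7 genes were higher and 2 lower (25.8% and 17.9% of all genes).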
